A study of Mus musculus with 18 samples.

Results

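The genes described here encode the proteins of the mitochondrial ribosome, taken as every gene on the array whose symbol begins with Mrpl or Mrps and a number. There were 76 of them among the 19057 genes with a probe of their own, and each was followed through 1 probe, the one with the highest mean in the authors' log2 table. Total RNA of cultured mouse mast cells labelled female was hybridised to 18 Illumina bead arrays. The groups were Dnmt3a KO mast cells left untreated or given IgE and antigen for 4 h or 24 h, and wild-type mast cells under the same 3 conditions. Each of the 6 groups had 3 arrays, from KO cultures numbered 3, 4 and 6 and from WT cultures numbered 6, 8 and 9, and every label carries 5 weeks, without saying whether this is the age of the mice or the time in culture. The labels do not state whether a culture number stands for a separate mouse, so the p-values measure the spread between these cultures, and they do not say how Dnmt3a was deleted. The study asked how Dnmt3a, a DNA methyltransferase, bears on the response of mast cells to activation through their IgE receptor.

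Mitochondrial ribosomes translate the few messages of mitochondrial DNA, all of which code for subunits of the respiratory chain and ATP synthase. Their RNA is made inside the organelle, but their proteins are encoded in the nucleus, made in the cytosol and imported. The Mrpl genes encode proteins of the large subunit, where peptide bonds form, and the Mrps genes mostly those of the small subunit, which holds the message. A mast cell is a tissue-resident immune cell, and binding of antigen to IgE on its surface makes it release granules and then transcribe cytokine genes.

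Of the 76 genes, 72 had a signal above the detection limit on all 18 arrays, namely 45 Mrpl and 27 Mrps genes. The limit was set on each array so that at most a share of 0.01 of the probes for odorant and vomeronasal receptors lay above it. Mrpl19, Mrpl32, Mrpl45 and Mrps14 were above the limit on 0 of 18 arrays and were not tested. Mean log2 intensities of the tested genes ran from 7.05 for Mrpl35 to 12.63 for Mrpl33. The brightest probes after that of Mrpl33 belonged to Mrps33 (12.02), Mrps24 (11.88), Mrpl20 (11.75) and Mrpl36 (11.73), and the dimmest after that of Mrpl35 to Mrps27 (7.09), Mrpl57 (7.25), Mrpl51 (7.29) and Mrps5 (7.41). Signals of different probes do not rank their transcripts. Markers of mast cells were present, with 12 of 14 above the limit on all arrays (among them Kit, Fcer1a and Cpa3), and the summed level of this list, as its mean log2 intensity, was 11.82 to 12.47 on KO arrays and 12.16 to 12.56 on WT arrays. Of 8 macrophage markers 1 (Adgre1) was above the limit on all arrays, and C1qa, C1qb and Mrc1 were above it on none. Of the basophil markers 3 of 4 were above it on all arrays, against 0 of 7 for neutrophils, 0 of 5 for T and NK cells, 0 of 2 for B cells, 0 of 3 for erythroid cells and 0 of 4 for fibroblasts. On 3 or more arrays 2 of the 3 erythroid, 2 of the 8 macrophage and 1 of the 7 neutrophil markers were above it. For T and NK cells, B cells and fibroblasts 0 were. The 3 Dnmt3a probes were above the limit on 0 of 18 arrays, so the genotype labels could not be checked against the targeted gene. In a bulk sample, fewer cells of a type and less RNA per cell cannot be told apart.

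Promoter sequence was at hand for 67 of the 76 genes, as the 250 bases before and 50 bases after the annotated start (RefSeq, GRCm38.p6). Mrpl4, Mrpl13, Mrpl15, Mrpl19, Mrpl38, Mrpl54, Mrps28, Mrps34 and Mrps35 had no entry. The windows were searched on both strands for 4 motifs of factors known from work on nuclear genes of mitochondrial proteins or of growth, with no overlap found between matches of different motifs. The motif CCGGAAG, bound by ETS factors such as GABP, was present in 25 windows (37.3%), against 20.3% of the 7350 tested genes with a window and 9.12% of all 27025 windows. The NRF1 motif, GCGCA and GCGC with any 1 base between them, named for a regulator of nuclear genes for mitochondria, was present in 13 (19.4%), against 11.5% and 4.78%. The YY1 motif ATGGCGG was present in 13 (19.4%), against 9.13% and 4.19%, and 12 of its 13 matches lay after the start. The E-box CACGTG, bound by MYC and its relatives, was present in 5 (7.46%), against 10.5% and 7.24%. The median GC content of the windows was 58.3%, against 60.7% for the tested genes and 52.7% for all, so the windows of all genes differ from these in base composition as well. At least 2 of the 4 motifs were present in 12 windows and none in 23.

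The windows of 5 genes whose levels moved after stimulation are shown because they hold these motifs in different combinations, with each match in capitals. Mrpl17 and Mrpl9 hold the NRF1 motif, the first with an ETS match and the second with a YY1 match. Mrps22 has 1 ETS match shortly before the start, Mrps2 1 YY1 match after the start, and Mrpl52 2 ETS matches. A match is a description of these letters and shows no binding.
Mrpl17, chr7:105811038-105811337 (minus strand): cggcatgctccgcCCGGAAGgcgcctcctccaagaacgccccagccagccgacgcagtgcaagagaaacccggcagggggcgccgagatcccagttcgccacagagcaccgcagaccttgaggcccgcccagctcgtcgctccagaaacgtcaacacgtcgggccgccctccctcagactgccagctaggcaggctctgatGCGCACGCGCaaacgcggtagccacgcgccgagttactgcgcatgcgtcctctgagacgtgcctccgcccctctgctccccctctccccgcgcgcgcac
Mrps22, chr9:98601630-98601929 (minus strand): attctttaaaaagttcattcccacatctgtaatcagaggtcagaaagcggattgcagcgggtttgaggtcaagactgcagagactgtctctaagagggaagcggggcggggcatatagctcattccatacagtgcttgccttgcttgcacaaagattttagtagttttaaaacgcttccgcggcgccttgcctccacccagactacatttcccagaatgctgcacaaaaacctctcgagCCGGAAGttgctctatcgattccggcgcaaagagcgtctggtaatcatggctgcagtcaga
Mrps2, chr2:28467816-28468115 (plus strand): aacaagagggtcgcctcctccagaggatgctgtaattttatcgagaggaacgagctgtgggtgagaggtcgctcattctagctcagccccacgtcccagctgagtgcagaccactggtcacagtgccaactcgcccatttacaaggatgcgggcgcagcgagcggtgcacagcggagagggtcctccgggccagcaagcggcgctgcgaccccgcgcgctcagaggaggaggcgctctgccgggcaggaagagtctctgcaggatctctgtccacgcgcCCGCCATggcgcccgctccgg
Mrpl9, chr3:94443086-94443385 (plus strand): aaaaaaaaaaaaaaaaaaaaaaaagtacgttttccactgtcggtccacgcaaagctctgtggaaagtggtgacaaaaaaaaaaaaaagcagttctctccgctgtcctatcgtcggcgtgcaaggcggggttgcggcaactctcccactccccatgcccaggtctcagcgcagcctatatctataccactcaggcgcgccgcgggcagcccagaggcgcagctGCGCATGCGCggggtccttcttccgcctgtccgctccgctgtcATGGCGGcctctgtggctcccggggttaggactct
Mrpl52, chr14:54426659-54426958 (plus strand): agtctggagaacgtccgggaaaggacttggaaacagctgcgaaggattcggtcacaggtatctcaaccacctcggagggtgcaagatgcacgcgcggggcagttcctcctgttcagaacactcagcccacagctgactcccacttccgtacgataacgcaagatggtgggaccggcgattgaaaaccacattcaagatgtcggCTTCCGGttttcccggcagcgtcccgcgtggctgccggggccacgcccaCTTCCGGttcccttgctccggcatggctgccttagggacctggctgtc

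Beside the motifs, 24 of the 67 genes (35.8%) had a gene on the opposite strand that starts within 1000 bases and runs away from them, against 18.1% of the tested genes and 10.5% of all genes. A pair of mitoribosomal genes faced each other in this way, Mrpl46 and Mrps11, whose starts lie 42 bases apart. Mrpl47 starts 308 bases from Ndufb5, a subunit of respiratory complex I, and Mrps12 starts 147 bases from Sars2, a mitochondrial seryl-tRNA synthetase. For 14 of these genes the neighbour was tested as well, with Mrpl46 and Mrps11 each counted as the neighbour of the other. At 4 h 0 of the neighbours passed the test described next, where 7.41% of all genes were called higher and 7.89% lower. At 24 h 1 of the 14 passed, where 3.51% of all genes were called higher and 4.49% lower, a share near that of all genes. The 1 was Tcp1, a subunit of a cytosolic chaperonin beside Mrpl18, which was 0.48 ± 0.13 higher (log2 change and SE, limma adjusted p = 0.035).

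The effect of stimulation was read first over both genotypes together, as the mean of the KO and WT changes, in limma with Benjamini-Hochberg adjustment over 8962 genes and an adjusted p of 0.05 as the threshold. After 4 h, 13 of the 72 genes (18.1%) rose and 0 fell. Among all genes tested, 7.41% were called higher and 7.89% lower. The 13 were 7 Mrps and 6 Mrpl genes, from Mrps28 at 1.65-fold to Mrps18a at 1.24-fold. The median change of the 72 was 0.15 on the log2 scale, against −0.03 for all genes, and 49 of the 72 changes were positive. At an unadjusted p under 0.05 there were 19 higher and 1 lower, where 14.2% and 16.9% of all genes were so. With median scaling of the arrays in place of quantile normalisation 4 rose and 0 fell, where 5.33% of all genes were called higher and 1.16% lower.

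Mrps28, a protein of the small subunit, gave the largest change at 4 h. Its log2 intensity was 9.60, 9.50 and 9.74 in KO cells at 4 h and 8.79, 9.06 and 9.15 in untreated KO cells (cultures 3, 4 and 6 in order). In WT cells it was 9.42, 8.98 and 9.41 at 4 h and 8.27, 8.26 and 8.82 untreated (cultures 6, 8 and 9 in order). All arrays at 4 h were above the untreated arrays of their own genotype, with some overlap between untreated KO and stimulated WT arrays. The change was 0.72 ± 0.13 (adjusted p = 0.00391). Within WT cells alone Mrps28 rose by 0.82 ± 0.19 (adjusted p = 0.0395), and in KO cells the change was 0.62 ± 0.19 (adjusted p = 0.124).

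Mrps2, a small-subunit protein with a bacterial counterpart, and Mrpl47, a large-subunit protein near the exit of the peptide tunnel, were the 2 of 72 genes whose 6 arrays at 4 h all lay above all 6 untreated arrays, as did 2.48% of all genes, a share near that of the set. Mrps2 had log2 intensities of 8.84, 8.47 and 8.54 in KO cells at 4 h, against 7.93, 8.01 and 8.19 in untreated KO cells. In WT cells it had 8.82, 8.57 and 8.37 at 4 h, against 8.06, 7.76 and 8.06 untreated. The groups did not overlap in either genotype, and the change was 0.60 ± 0.15 (adjusted p = 0.0156). Mrpl47 had 9.86, 9.30 and 9.30 in KO cells at 4 h, against 8.97, 9.17 and 8.84 untreated. In WT cells it had 9.89, 9.18 and 9.17 at 4 h, against 8.83, 8.44 and 8.81 untreated. Cultures KO 3 and WT 6, which share a slide, had the highest values at 4 h, and the change was 0.61 ± 0.18 (adjusted p = 0.0353).

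The other Mrps genes that rose at 4 h were Mrps6 (0.64 ± 0.20), Mrps18b (0.55 ± 0.18), Mrps22 (0.46 ± 0.11), Mrps7 (0.39 ± 0.12) and Mrps18a (0.31 ± 0.10). Mrps6 varied most among them, with 9.79, 10.43 and 10.24 in KO cells at 4 h against 9.46, 9.27 and 9.54 untreated, and 9.87, 10.89 and 9.67 in WT cells at 4 h against 9.999, 9.33 and 9.44 untreated. WT culture 6 was the exception, being lower at 4 h than untreated. Mrps22, known from work on human patients for its part in respiratory chain deficiency, had 9.44, 9.42 and 9.43 in KO cells at 4 h against 8.75, 9.15 and 8.90 untreated, and 9.27, 8.93 and 9.18 in WT cells at 4 h against 8.61, 8.65 and 8.87 untreated. It was higher at 4 h in every culture, without overlap within a genotype. Mrps18a and Mrps18b belong with Mrps18c to a set of 3 related genes, and Mrps18a, despite its symbol, is a component of the large subunit. Adjusted p-values of these 5 genes ran from 0.0158 for Mrps22 to 0.0461 for Mrps18a.

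The Mrpl genes that rose at 4 h beside Mrpl47 were Mrpl53 (0.49 ± 0.13), Mrpl17 (0.49 ± 0.13), Mrpl9 (0.47 ± 0.13), Mrpl15 (0.36 ± 0.10) and Mrpl43 (0.34 ± 0.10), with adjusted p-values of 0.0197 to 0.0283. Mrpl9, Mrpl15 and Mrpl17 have bacterial counterparts, while Mrpl43 and Mrpl53 are found in mitochondria and not in bacterial ribosomes. Mrpl9 had log2 intensities of 9.60, 9.48 and 9.45 in KO cells at 4 h against 9.00, 8.93 and 8.93 untreated, and 9.53, 9.36 and 8.94 in WT cells at 4 h against 9.08, 8.80 and 8.80 untreated. All KO arrays at 4 h exceeded the untreated ones, and in WT cells culture 9 at 4 h lay below untreated culture 6. The largest negative changes at 4 h, none past the threshold, were those of Mrpl36 (−0.31 ± 0.13, adjusted p = 0.119), Mrps21 (−0.26) and Mrpl33 (−0.23).

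**Figure D1:**
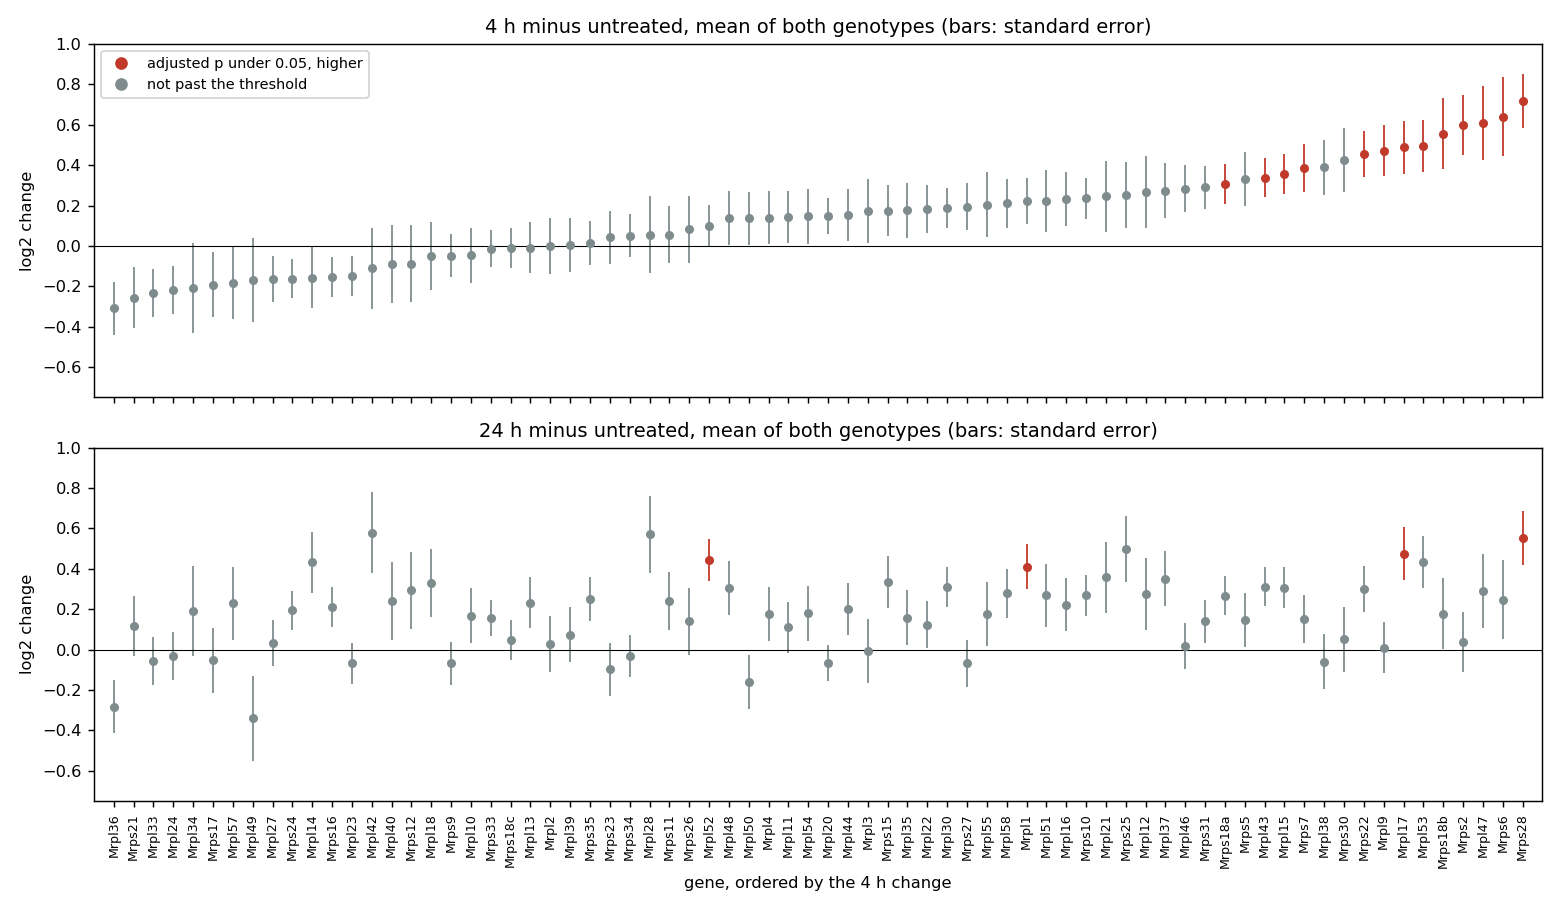
Log2 change of each of the 72 tested genes, as the mean over both genotypes, at 4 h against untreated (upper) and 24 h against untreated (lower), with genes in the order of the 4 h change and bars for the standard error. Red points passed an adjusted p of 0.05 and were all higher, 13 at 4 h and 4 at 24 h, and the lowest values were −0.31 for Mrpl36 at 4 h and −0.34 for Mrpl49 at 24 h.

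The count at 4 h changed when single cultures were left out. Fewer arrays give less power for every gene, and the share of all genes called in such fits is not given here. The counts that follow are therefore not a trait of the set. Without WT culture 8 or without KO culture 3 the count at 4 h was 1, without KO culture 4 it was 3, without WT culture 6 it was 4 and without KO culture 6 it was 8, against 13 with all. The culture numbers pair the arrays over time, and with the culture as a replicate block 15 genes rose and 1 fell at 4 h, all 13 above among them, with Mrpl38 (0.39 ± 0.11) and Mrps5 (0.33 ± 0.09) added among the rises and Mrpl36 (−0.31 ± 0.10, adjusted p = 0.0367) as the fall. With the block 12.1% of all genes were called higher and 14.2% lower. Counted by culture, 19 of the 72 (26.4%) were higher at 4 h than untreated in all 6 cultures and 2 (2.78%) lower in all 6. Of all genes tested, 12.6% and 16.6% were so.

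After 24 h fewer single genes passed the test, while more of the changes were positive. Of the 72, 4 (5.56%) rose and 0 fell, where 3.51% of all genes were called higher and 4.49% lower. The median change was 0.19, against −0.01 for all genes, and 58 of the 72 changes were positive. At an unadjusted p under 0.05 there were 21 higher and 1 lower, where 12% and 13.7% of all genes were so. With median scaling 7 rose and 0 fell, where 5.05% of all genes were called higher and 0.536% lower, and the median of all genes was then 0.195. The untreated arrays are shared with the 4 h comparison, so the 2 comparisons are not independent.

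The 4 genes were Mrps28 (0.55 ± 0.13, adjusted p = 0.0222), Mrpl17 (0.48 ± 0.13, adjusted p = 0.0369), Mrpl52 (0.44 ± 0.10, adjusted p = 0.0181) and Mrpl1 (0.41 ± 0.11, adjusted p = 0.0379). The level of Mrps28 at 24 h was 9.38, 9.32 and 9.75 in KO cells and 8.91, 8.98 and 9.31 in WT cells, above the untreated arrays of the same genotype. Mrpl17 had 10.64, 10.71 and 11.06 untreated, 11.19, 10.97 and 11.52 at 4 h and 11.13, 11.38 and 11.24 at 24 h in KO cells, and 10.83, 10.18 and 10.78 untreated, 11.24, 11.03 and 11.17 at 4 h and 11.01, 11.11 and 11.18 at 24 h in WT cells. Its stimulated arrays lay above the untreated ones within each genotype, except that KO culture 4 at 4 h was below untreated KO culture 6. Mrpl52, a large-subunit protein with no bacterial counterpart, had 9.13, 9.48 and 9.30 untreated, 9.47, 9.57 and 9.45 at 4 h and 9.89, 9.86 and 10.13 at 24 h in KO cells. In WT cells it had 9.72, 9.57 and 9.67 untreated, 9.58, 9.50 and 9.89 at 4 h and 9.92, 10.06 and 9.68 at 24 h. The KO arrays at 24 h stood clear of the earlier ones, and the WT arrays overlapped. Mrpl1, a protein of the mobile stalk through which spent tRNA leaves, had 10.03, 9.95 and 9.88 in KO cells at 24 h against 9.67, 9.60 and 9.27 untreated, and 9.74, 9.61 and 9.51 in WT cells at 24 h against 9.30, 9.32 and 9.09 untreated. It did not overlap between 24 h and untreated within a genotype.

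Larger changes at 24 h that did not pass were those of Mrpl42 (0.58 ± 0.20) and Mrpl28 (0.57). The largest negative changes, also not past the threshold, were Mrpl49 (−0.34 ± 0.21, adjusted p = 0.324), Mrpl36 (−0.28 ± 0.13, adjusted p = 0.186) and Mrpl50 (−0.16). Mrpl49 had 3 further probes above the limit, which changed by 0.12, 0.32 and −0.09 at 24 h, so 2 of the 3 went the other way and the direction rests on the chosen probe. Without WT culture 6, WT culture 8, KO culture 3 or KO culture 6 the count at 24 h was 0. It was 1 without KO culture 4, 2 without WT culture 9 and 1 without the single 24 h array of KO culture 6. As at 4 h, the share of all genes called in these smaller fits is not given. With the culture as a replicate block 16 genes rose and 1 fell, the 4 above among them, where 9.43% of all genes were called higher and 9.94% lower. The largest of those added were Mrpl42 (0.58 ± 0.14, adjusted p = 0.014), Mrpl28 (0.57 ± 0.12, adjusted p = 0.00713) and Mrps25 (0.50 ± 0.16, adjusted p = 0.0437), and the 1 fall was that of the chosen Mrpl49 probe (−0.34 ± 0.11, adjusted p = 0.0434). The 2 further Mrps25 probes changed by 0.05 and 0.06, against 0.50 for the chosen one. By culture, 20 of the 72 (27.8%) were higher at 24 h in all 6 and 1 (Mrpl49) lower in all 6, where 11.3% and 13.5% of all genes were so. No gene of the set had all 6 arrays at 24 h above all 6 untreated arrays (0 of 72), as 2.18% of all genes did.

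**Figure D2:**
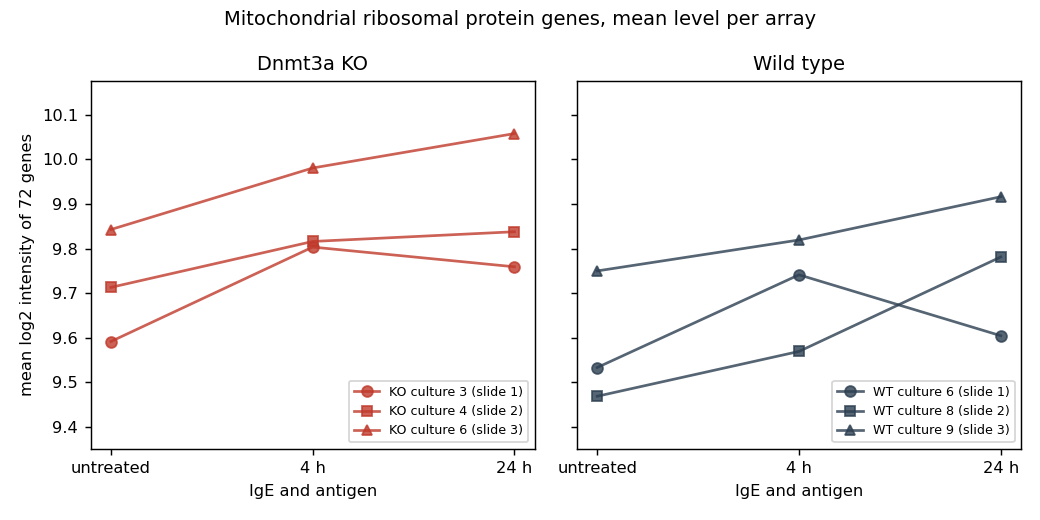
Mean log2 intensity of the 72 genes on each array, untreated and at 4 h and 24 h, for KO cultures (left) and WT cultures (right), with lines joining the arrays of a culture. Group means were 9.72, 9.87 and 9.88 in KO cells and 9.58, 9.71 and 9.77 in WT cells, with SDs of 0.10 to 0.16 between the 3 cultures of a group.

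The shift of the set had the same sign in each culture. The median change of the 72 genes at 4 h was 0.15, 0.06 and 0.13 in KO cultures 3, 4 and 6 and 0.21, 0.08 and 0.08 in WT cultures 6, 8 and 9. At 24 h it was 0.19, 0.13 and 0.29 in the KO cultures and 0.12, 0.26 and 0.17 in the WT cultures. Each slide held 1 KO and 1 WT culture, so these are also values within a slide, and with the slide as a block 16 genes rose and 2 fell at 4 h (12.7% and 14.9% of all genes) and 16 rose and 2 fell at 24 h (9.52% and 10.7% of all genes). The brightness of the arrays moved with time as well. The median probe signal was 93.4 to 140 untreated, 107 to 153 at 4 h and 103 to 159 at 24 h in KO cells, and 98.3 to 112 untreated, 108 to 122 at 4 h and 108 to 143 at 24 h in WT cells, and in each of the 6 cultures it was higher after stimulation. Across the 18 arrays, which share slides and cultures, the levels of the 72 genes had a median r of 0.35 with log2 brightness, against 0.02 for all genes. The part of brightness in the shift was not tested.

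**Figure D3:**
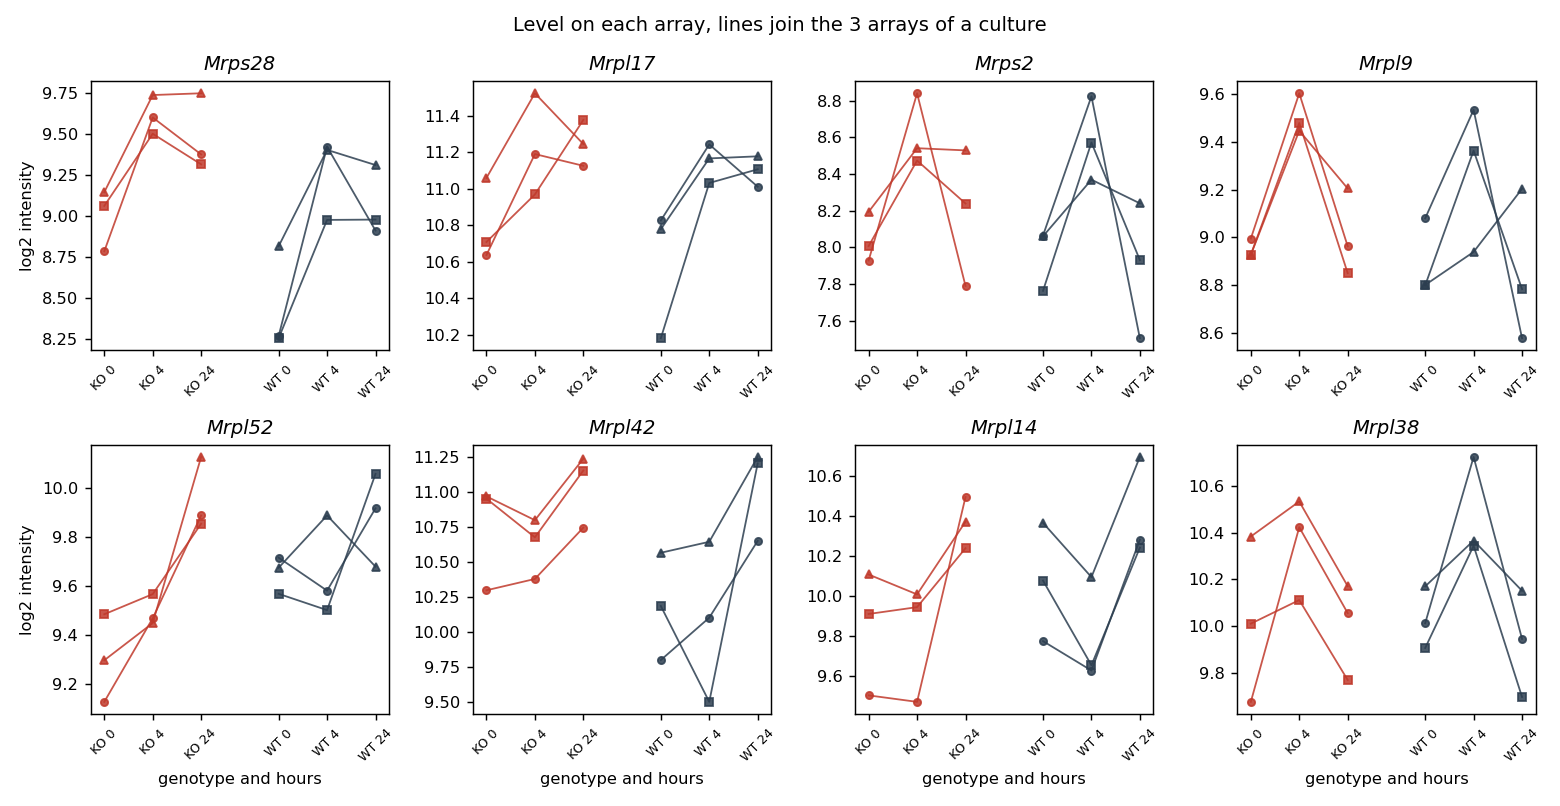
Log2 intensity of 8 genes on each array, for KO cultures (red, left) and WT cultures (dark, right) untreated (0) and after 4 and 24 hours, with lines joining the arrays of a culture and circles, squares and triangles for cultures 3, 4 and 6 (KO) and 6, 8 and 9 (WT). Mrps28 and Mrpl17 were higher at both times, Mrps2 and Mrpl9 were high at 4 h, and Mrpl14, Mrpl42 and Mrpl52 were high at 24 h.

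The comparison of 24 h with 4 h called few single genes of the set. In it 5 of the 72 (6.94%) were higher at 24 h and 3 (4.17%) lower, where 10.9% of all genes were called higher and 10% lower. The shares of the set were below those of all genes, and the median difference was 0.03, against 0.01 for all genes. With median scaling 1 was higher and 0 lower, where 7.49% of all genes were called higher and 3.29% lower. Genes high at 24 h were Mrpl42 (0.69 ± 0.20, adjusted p = 0.0252), Mrpl14 (0.59 ± 0.15, adjusted p = 0.0137), Mrps16 (0.36 ± 0.10, adjusted p = 0.0185), Mrps24 (0.36 ± 0.10, adjusted p = 0.0185) and Mrpl52 (0.35 ± 0.10, adjusted p = 0.0278). Genes lower at 24 h than at 4 h were Mrps2 (−0.56 ± 0.15, adjusted p = 0.0161), Mrpl9 (−0.46 ± 0.13, adjusted p = 0.0182) and Mrpl38 (−0.45 ± 0.14, adjusted p = 0.0293).

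Mrpl14, which lies at the face between the subunits, was the 1 gene whose 6 arrays at 24 h all lay above all 6 arrays at 4 h, as did 3.5% of all genes. It had 9.50, 9.91 and 10.11 untreated, 9.47, 9.95 and 10.01 at 4 h and 10.50, 10.24 and 10.37 at 24 h in KO cells, and 9.78, 10.08 and 10.37 untreated, 9.63, 9.66 and 10.10 at 4 h and 10.28, 10.24 and 10.70 at 24 h in WT cells. Untreated arrays overlapped with both times. Mrpl42, a protein found only in mitochondrial ribosomes, had 10.30, 10.95 and 10.97 untreated, 10.38, 10.68 and 10.80 at 4 h and 10.75, 11.15 and 11.24 at 24 h in KO cells. In WT cells it had 9.80, 10.19 and 10.57 untreated, 10.10, 9.50 and 10.64 at 4 h and 10.65, 11.21 and 11.25 at 24 h. The lowest array at 4 h was that of WT culture 8, and the 24 h arrays were the highest of their culture in all 6.

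Mrps2 at 24 h overlapped with its untreated values, at 7.79, 8.24 and 8.53 in KO cells and 7.50, 7.93 and 8.24 in WT cells. Mrpl9 at 24 h had 8.96, 8.85 and 9.20 in KO cells and 8.58, 8.78 and 9.20 in WT cells, overlapping with untreated cells. Mrpl38, a protein of the crown of the large subunit, had 9.68, 10.01 and 10.38 untreated, 10.42, 10.11 and 10.53 at 4 h and 10.06, 9.77 and 10.17 at 24 h in KO cells, and 10.01, 9.91 and 10.17 untreated, 10.72, 10.34 and 10.37 at 4 h and 9.95, 9.70 and 10.15 at 24 h in WT cells. Its 4 h array was the highest of the culture in all 6. The count of 8 was 0 without WT culture 8, 1 without KO culture 4, 2 without WT culture 6 and 3 without KO culture 3. For these smaller fits, too, the share of all genes called is not given. With the culture as a replicate block 11 were higher and 3 lower, all 8 among them, where 17.4% of all genes were called higher and 15.7% lower. With the block Mrpl28 (0.51 ± 0.12), Mrpl34 (0.40 ± 0.10), Mrps12 (0.38 ± 0.09), Mrpl18 (0.38 ± 0.10), Mrps21 (0.37 ± 0.11) and Mrpl40 (0.33 ± 0.10) were added, all higher at 24 h.

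Within a genotype, with 3 arrays against 3, few genes of the set passed. In KO cells 0 of the 72 passed at 4 h, where 0.636% of all genes were called higher and 0.179% lower, and the median change was 0.14. At 24 h 0 passed, where 0.156% of all genes were called higher and 0.0893% lower, and the median was 0.20. In WT cells 1, Mrps28, rose at 4 h, where 0.893% of all genes were called higher and 0.926% lower, and the median was 0.09. At 24 h 0 passed, where 0.279% of all genes were called higher and 0.413% lower, and the median was 0.17. At an unadjusted p under 0.05, 14 genes were higher and 1 lower in KO cells at 4 h, 10 and 0 in KO cells at 24 h, 11 and 1 in WT cells at 4 h, and 11 and 0 in WT cells at 24 h. Of all genes, 8.31% and 8.64% were so in KO cells at 4 h, 6.86% and 6.83% in KO cells at 24 h, 9.08% and 10.6% in WT cells at 4 h, and 7.09% and 8.63% in WT cells at 24 h.

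The largest changes in KO cells at 4 h were those of Mrps6 (0.73 ± 0.28), Mrps28 (0.62) and Mrps2 (0.58), against Mrpl36 (−0.45 ± 0.19), Mrpl33 (−0.24) and Mrpl49 (−0.23) at the other end. At 24 h they were Mrpl52 (0.66 ± 0.15), Mrps25 (0.58) and Mrpl14 (0.53), against Mrpl49 (−0.38 ± 0.30), Mrpl36 (−0.31) and Mrps23 (−0.26). In WT cells at 4 h the values after Mrps28 were those of Mrpl47 (0.72 ± 0.26) and Mrps18b (0.63), against Mrpl24 (−0.42 ± 0.17), Mrps21 (−0.35) and Mrpl14 (−0.28). At 24 h they were Mrpl42 (0.85 ± 0.29), Mrpl28 (0.67) and Mrps28 (0.62), against Mrpl49 (−0.30 ± 0.30), Mrpl36 (−0.26) and Mrpl50 (−0.16). None of these passed except Mrps28 in WT cells at 4 h. With the culture as a replicate block the counts of higher genes were 2 in KO cells at 4 h (Mrps18a and Mrps28), 1 in KO cells at 24 h (Mrpl52), 3 in WT cells at 4 h (Mrps28, Mrpl15 and Mrpl53) and 3 in WT cells at 24 h (Mrpl28, Mrpl42 and Mrps28). Of all genes, 2.73% and 1.65% were then called higher in KO cells at 4 h and 24 h, and 4.12% and 2.1% in WT cells. The single call in WT cells at 4 h was absent when WT culture 6 or 8, or KO culture 3, 4 or 6, was left out. Without the 4 h array of WT culture 9 the count was 3. The share of all genes called in these smaller fits is not given.

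The response of KO cells was set against that of WT cells by the difference of the 2 changes. At 4 h 0 of the 72 differences passed, where 0% of all genes did, and at 24 h 0 passed, where 0% of all genes did. At an unadjusted p under 0.05 there were 0 among the 72 at either time, and 48 higher and 45 lower among all genes at 4 h and 95 and 64 at 24 h. The median difference was 0.01 at 4 h and −0.01 at 24 h. Mrpl51 (0.51 ± 0.31), Mrpl24 (0.41) and Mrps18a (0.35) lay at the upper end at 4 h and Mrpl3 (−0.32 ± 0.32), Mrpl55 (−0.30) and Mrpl36 (−0.28) at the lower. At 24 h Mrpl52 (0.42 ± 0.21), Mrps6 (0.37) and Mrpl21 (0.30) lay at the upper end and Mrpl42 (−0.55 ± 0.40), Mrps16 (−0.39) and Mrps18b (−0.35) at the lower. The fit had no block, so the pairing of arrays by culture was not used and the standard errors include spread between cultures. Over all genes the unadjusted counts at both times were far below the share of 0.05 that would arise without any difference. The fit without a block was thus conservative here, and the counts of 0 say little. A difference that misses the threshold does not show that the genotypes respond alike.

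KO cells had slightly higher levels of most of these genes than WT cells at every time, without any single gene passing the test. On the means of each culture's 3 arrays, 62 of the 72 genes were higher in KO cells, the median difference was 0.15 against −0.01 for all genes, and 0 passed, where 0.112% of all genes did. At an unadjusted p under 0.05 there were 6 higher and 0 lower, where 3.02% and 3.01% of all genes were so. In untreated cells 58 were higher (median 0.13) and 0 passed, where 0.268% of all genes did. At 4 h 59 were higher (median 0.18) and 0 passed, where 0.19% of all genes did. At 24 h 56 were higher (median 0.13) and 0 passed, where 0.279% of all genes did. Over all genes the median of KO minus WT within a slide ran from −0.03 to −0.01 over slides and times. The share of all genes with a positive difference is not given.

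Among culture means the largest differences were those of Mrps28 (0.44 ± 0.15, adjusted p = 0.716), Mrps10 (0.41 ± 0.12, adjusted p = 0.569) and Mrpl42 (0.37 ± 0.21, adjusted p = 0.884). Mrps10, a small-subunit protein with a bacterial counterpart, averaged 9.76, 9.62 and 9.83 over time in KO cultures 3, 4 and 6, against 9.36, 9.20 and 9.44 in WT cultures 6, 8 and 9. Mrps28 averaged 9.26, 9.29 and 9.55 in the KO cultures, against 8.87, 8.74 and 9.18 in the WT cultures. The genotypes did not overlap for either gene. The lowest differences were those of Mrpl52 (−0.15 ± 0.10), Mrps34 (−0.15 ± 0.11) and Mrpl49 (−0.13 ± 0.24). All 3 KO cultures lay above all 3 WT cultures for 15 of the 72 genes (20.8%) and below them for 1 (1.39%), Mrpl52, where 6.05% and 6.27% of all genes did so.

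By time, the upper ends were Mrpl42 (0.56 ± 0.29), Mrps28 (0.55) and Mrpl37 (0.48) in untreated cells, Mrpl42 (0.54 ± 0.29), Mrpl48 (0.46) and Mrps25 (0.43) at 4 h, and Mrps10 (0.42 ± 0.14), Mrps28 (0.41) and Mrps25 (0.38) at 24 h. The lower ends were Mrpl52 (−0.35 ± 0.15), Mrpl14 (−0.23) and Mrpl39 (−0.19) in untreated cells, Mrps26 (−0.20 ± 0.23), Mrpl50 (−0.19) and Mrpl49 (−0.19) at 4 h, and Mrpl33 (−0.27 ± 0.17), Mrps23 (−0.16) and Mrpl49 (−0.14) at 24 h. None of these passed.

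**Figure D4:**
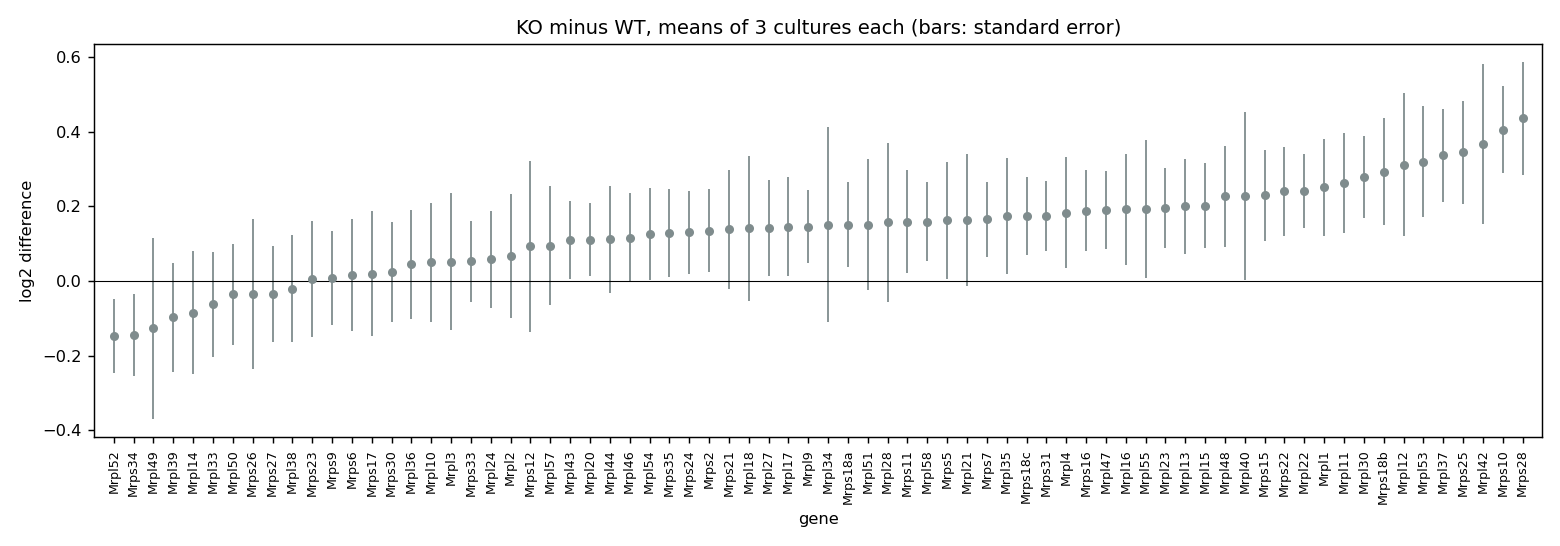
Difference between KO and WT in log2 intensity for each of the 72 genes, as means of 3 cultures each, ordered by size with bars for the standard error. The differences run from −0.15 for Mrpl52 to 0.44 for Mrps28, 62 of them are above 0, and 0 passed the test.

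The difference kept its sign within each slide, which carried 1 culture of each genotype. The median of KO minus WT over the 72 genes was 0.08, 0.25 and 0.10 on slides 1, 2 and 3 in untreated cells, 0.06, 0.26 and 0.16 at 4 h and 0.16, 0.06 and 0.16 at 24 h. With the slide as a block 0 of the 72 passed at any time. The median without 1 culture ran from 0.08 without KO culture 6 to 0.20 without WT culture 9, and at 24 h without the KO array of culture 6 it was 0.03. On the arrays of slides 2 and 3 brightness reached higher values (112 to 153 and 99.6 to 159) than on slide 1 (93.4 to 108). Within slides 2 and 3 the KO array was the brighter at each time. Untreated, at 4 h and at 24 h it had 140, 153 and 153 against 112, 122 and 132 for WT on slide 2. On slide 3 the values were 125, 129 and 159 against 99.6, 117 and 143. On slide 1 KO was dimmer, at 93.4, 107 and 103 against 98.3, 108 and 108. Levels of marker lists, as mean log2 intensities, differed between the genotypes at some times. The macrophage list was at 6.56 to 6.81 in untreated KO cells against 6.58 to 6.74 in untreated WT cells, at 6.71 to 6.83 against 6.31 to 6.67 at 4 h, and at 6.62 to 6.80 against 6.31 to 6.55 at 24 h, so KO and WT did not overlap at 4 h or 24 h. Of its 8 markers 2 were above the detection limit on 3 or more arrays, so this mean rests mostly on signals below the limit. The basophil list was at 8.82 to 10.28 in untreated KO cells against 8.97 to 9.11 in untreated WT cells, at 9.23 to 9.66 against 9.03 to 9.18 at 4 h, without overlap, and at 9.18 to 9.60 against 9.15 to 9.51 at 24 h. The mast cell list was at 11.997 to 12.46 in untreated KO cells against 12.22 to 12.38 in untreated WT cells, at 11.94 to 12.47 against 12.16 to 12.40 at 4 h and at 11.82 to 12.33 against 12.29 to 12.56 at 24 h, with overlap at each time. The part of brightness and of cell makeup in the difference was not tested.

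By symbol, the counts stand beside 7.41% of all genes called higher at 4 h and 3.51% at 24 h. The symbol is not a full guide to the subunit, as Mrps18a is counted with the Mrps genes here. Of the 45 Mrpl genes 6 rose at 4 h (13.3%, median 0.15) and 3 at 24 h (6.67%, median 0.20), and of the 27 Mrps genes 7 rose at 4 h (25.9%, median 0.17) and 1 at 24 h (3.70%, median 0.16), with 0 falls in each. The share of Mrps genes at 24 h was thus near that of all genes. Of the 43 tested genes listed as having a bacterial counterpart, 9 rose at 4 h and 2 at 24 h, and 41 were higher in KO than in WT culture means (median 0.16). Of the 28 listed as found only in mitochondria, 4 rose at 4 h and 2 at 24 h, and 20 were higher in KO (median 0.11). Mrps28 was listed with the second, although it has been named for a bacterial protein too, and Mrpl58, a release factor built into the large subunit, was in neither. The difference between these groups was not tested. Mitoribosomal proteins that go by other symbols, Dap3, Ptcd3 and Chchd1, did not pass at 4 h or 24 h, and Dap3, a GTP-binding protein of the small subunit, was 0.50 ± 0.13 higher at 24 h than at 4 h (adjusted p = 0.0157).

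Among genes that serve the mitochondrial ribosome, 2 of 26 assembly factors rose and 2 fell at 4 h (7.69% each), with a median of 0.03, which is near the 7.41% and 7.89% of all genes called higher and lower. Fastkd3, a mitochondrial RNA-binding protein, rose by 1.04 ± 0.17 (adjusted p = 0.00222) and Ddx28, an RNA helicase of large-subunit assembly, by 0.51 ± 0.16, while Mrm1 and Nsun4, methyltransferases of mitochondrial ribosomal RNA, fell by 0.55 and 0.48 on the log2 scale. At 24 h Fastkd3 (0.65) and Spg7 (0.55), a protease that processes a large-subunit protein, rose and Mrm1 (−0.63) fell. Between 4 h and 24 h Tfb1m (0.64), another methyltransferase of that RNA, Spg7 (0.63) and Mtg1 (0.56) were higher at 24 h and Ddx28 (−0.68), Mrm3 (−0.46) and Rcc1l (−0.44) lower. Of 17 translation factors Gfm1, the elongation factor that moves the mitochondrial ribosome along the message, rose at 4 h (0.53 ± 0.13, adjusted p = 0.0135) and at 24 h (0.43 ± 0.13, adjusted p = 0.0485). Guf1, a translational GTPase, fell at 4 h (−0.53 ± 0.16), and Gfm2, which acts in recycling, was 0.51 ± 0.14 higher at 24 h than at 4 h. Of 18 genes of mitochondrial tRNA charging and modification Mars2 (0.56), which charges methionine, rose and Qrsl1 (−0.64), part of the enzyme that makes glutaminyl-tRNA, and Fars2 (−0.62), which charges phenylalanine, fell at 4 h, and 0 passed at 24 h, where the largest changes were those of Gatb (0.38) and Gtpbp3 (0.31). At 24 h Fars2 (0.64) and Gatb (0.63) were higher than at 4 h, and Ears2 (−0.55), Trit1 (−0.37) and Trnt1 (−0.35) lower. Among all genes 7.41% were called higher and 7.89% lower at 4 h, and 3.51% and 4.49% at 24 h. For 24 h against 4 h the shares were 10.9% and 10%. With so few calls in each list, these are changes of single genes and not a response of the lists.

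Among 22 genes of mitochondrial DNA, its transcription and mitochondrial biogenesis, 6 rose at 4 h and 0 fell. Of all genes, 7.41% were called higher and 7.89% lower. Gabpb1 and Gabpa, the 2 subunits of the ETS-family factor GABP, rose by 1.10 ± 0.21 (adjusted p = 0.00428) and 0.41 ± 0.13 (adjusted p = 0.049). The others were Elac2 (0.64 ± 0.13) and Trmt10c (0.48 ± 0.13), which process mitochondrial tRNA, Tefm (0.60 ± 0.11), an elongation factor of mitochondrial transcription, and Pprc1 (0.59 ± 0.14), a coactivator related to PGC-1alpha. At 24 h Gabpb1 (0.71 ± 0.21, adjusted p = 0.0478) and Hsd17b10 (1.51 ± 0.36, adjusted p = 0.0212), a subunit of the mitochondrial RNase P, were higher than untreated, where 3.51% of all genes were called higher. At 24 h against 4 h 6 were lower, Elac2 (−0.75), Tefm (−0.60), Pprc1 (−0.58), Ppargc1b (−0.47), Tfb2m (−0.44) and Twnk (−0.36), where 10% of all genes were called lower. The ETS motif that GABP binds was present in 6 of the 11 windows of genes that rose at 4 h and in 19 of the 53 windows of the other tested genes of the set. The YY1 motif was present in 4 of 11 and 9 of 53, the NRF1 motif in 2 of 11 and 9 of 53, and the E-box in 0 of 11 and 5 of 53. These counts were not tested.

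**Figure D5:**
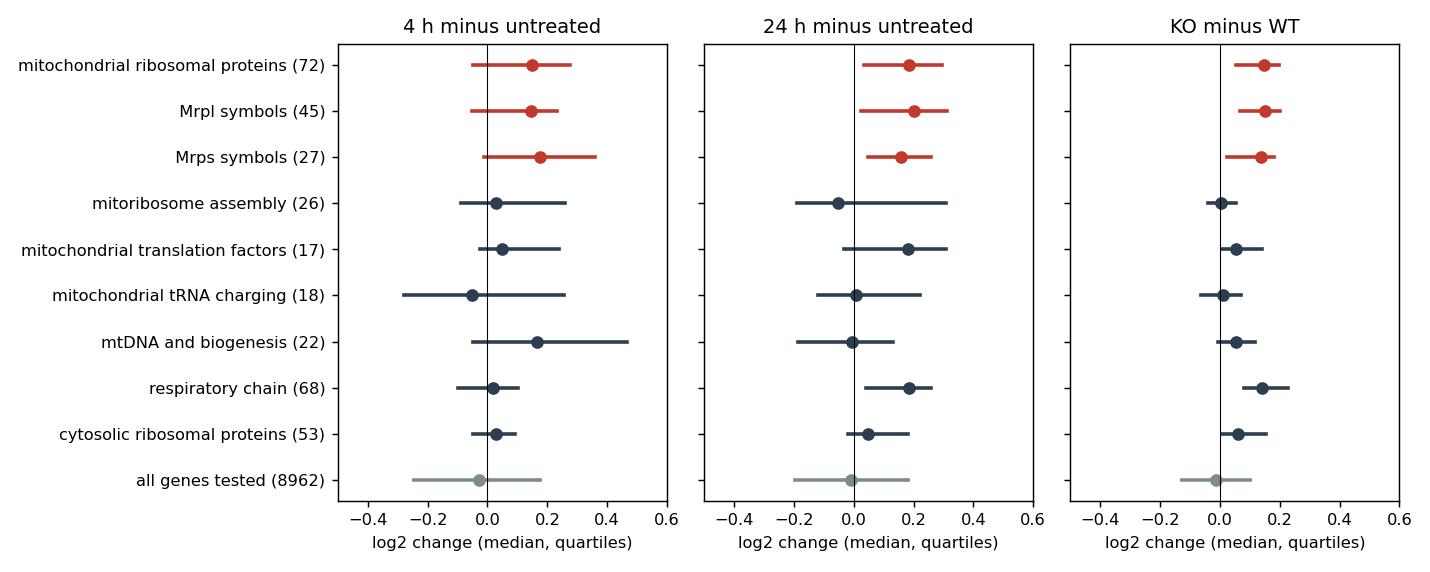
Median (point) and quartiles (bar) of the log2 change within each gene list, at 4 h against untreated, 24 h against untreated and KO against WT culture means, with the number of genes tested in brackets. Mitochondrial ribosomal proteins had medians of 0.15, 0.19 and 0.15 and the respiratory chain 0.02, 0.19 and 0.14, while all genes lay at −0.03, −0.01 and −0.01.

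The nuclear genes of the respiratory chain and ATP synthase are the ones whose products join those made by the mitochondrial ribosome. Of 68 tested, 1 rose (Ndufb6, 0.48 ± 0.10) and 1 fell (Ndufa6, −0.56 ± 0.11) at 4 h, with a median of 0.02. Among all genes 7.41% were called higher and 7.89% lower at 4 h, above the shares of this list. At 24 h 3 rose, the complex I subunits Ndufb6 (0.58) and Ndufab1 (0.52) and the cytochrome oxidase subunit Ndufa4 (0.54). Among all genes 3.51% were called higher at 24 h, a share near that of the list. Of the 68 changes at 24 h 53 were positive, with a median of 0.19. At 24 h against 4 h 7 were higher (10.3%, near the 10.9% of all genes) and 0 lower, among them Ndufa6 (0.51) and Ndufa3 (0.50). In KO against WT culture means 63 of the 68 differences were positive (median 0.14) and 0 passed. Of 53 tested cytosolic ribosomal protein genes 0 passed at 4 h (median 0.03), at 24 h (median 0.05) and between the 2 times, and in KO against WT culture means 1 passed, Rps4l, a copy of a small-subunit gene, at 2.94 ± 0.19 (adjusted p = 0.0043), with a list median of 0.06. The differences between these lists and the mitoribosomal genes were not tested.

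The 72 genes followed each other across the arrays to different degrees. The correlation of each with the mean of the others over the 18 arrays had a median of 0.61 and ran from −0.30 for Mrpl39 to 0.89 for Mrpl12, a protein of the stalk that recruits translation factors, and 45 were above 0.5. After the mean of each slide was removed the median was 0.61, with 40 above 0.5 and 10 below 0. The arrays share cultures and slides, so these values are descriptions. The genes outside the set whose levels ran most closely with the mean of the 72 over the 18 arrays were Tmem41a (r = 0.933), Aarsd1 (r = 0.930), Slc25a5 (r = 0.928), Prmt1 (r = 0.928) and Hmgn1 (r = 0.925). Of them Slc25a5 encodes an ADP/ATP carrier of the inner mitochondrial membrane and Prmt1 an arginine methyltransferase.

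Where a gene had several probes above the limit, most had the same sign. Of 40 further probes of 26 genes, 34 had the sign of the chosen probe at 4 h, 35 at 24 h and 32 for 24 h against 4 h. For genes past the threshold the sign was shared by 12 of 12 further probes at 4 h, 1 of 1 at 24 h and 2 of 2 for 24 h against 4 h. The further probes of Mrpl49 and Mrps25 differed from the chosen ones, as given with the 24 h values. For 0 genes did 2 probes pass the threshold in opposite directions.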

How the data were processed

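Total RNA of cultured mouse mast cells was measured on 18 Illumina bead arrays, from cRNA labelled with biotin by an Ambion kit, per the labels' protocols. The deposited table of intensities holds 1 value per probe on a linear scale, not normalised between arrays. A second deposited table gives the authors' log2 values, which came within 0.000556 of the quantile normalised intensities of the first. How probe values were summarised is not given in the sources used here.

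For the tests, intensities were corrected by normexp with an offset of 50, fitted to each array's own signals because the tables used here hold no control probes or detection p-values, then quantile normalised and log2 transformed (limma 3.58.1 in R 4.3.3). A gene was tested if its probe was above the detection limit on at least 3 arrays, the limit being set by 1506 receptor probes, with limits of 107 to 222 on the arrays. Among 45281 probes, the annotation paired 34885 with 1 gene symbol and 18 with several, left 10378 unnamed; 16669 probes were kept. The fit took 6 group means over all 18 arrays without a block (lmFit and eBayes), with two-sided p-values adjusted by Benjamini-Hochberg over 8962 genes and a threshold of 0.05. Genotype was also tested on the means of each culture. Errors are standard errors of the fit, and SDs are between arrays. The number of arrays limits the precision.

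Named genes are those past the threshold, the 3 largest changes in each direction, the 5 highest and 5 lowest levels, those not tested, and up to 6 list members past the threshold or else the 2 largest. The genes, lists and tests were chosen with earlier results of these data known. Motifs, promoters and neighbouring genes come from RefSeq (GRCm38.p6).

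Deviations from group means correlated between arrays that share a culture number at r = 0.134 to 0.625, all 18 pairs above 0.1, so the culture number was taken to pair arrays over time. Pairs of the 2 genotypes on 1 slide had a median of 0.328, so culture and slide cannot be told apart in this. The highest correlation between 2 arrays was 0.985, so none was deposited more than once. In simulated data for the 4 h comparison over 8962 genes, 50 genes were changed by each log2 size. The fit recovered 1 at 0.25, 15 at 0.5, 38 at 1 and 49 at 2, and 6 unchanged genes were called. The simulated noise was independent between arrays, while the real arrays share cultures and slides. Recovery and false calls in the real data may therefore differ. Alternatives were median scaling or cyclic loess, the authors' log2 values, no background correction, no filter, every kept probe, slide or culture as a block, culture as a random block, the compared groups only, and arrays left out.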

Additional observations from a re-analysis of the deposited data

How the results depend on the processing

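With the culture as a replicate block the count of genes called was 3 in WT cells at 4 h, 3 in WT cells at 24 h, 2 in KO cells at 4 h, 1 in KO cells at 24 h, 17 at 24 h over both genotypes and 14 for 24 h against 4 h. In the same order the slide as a block gave 4, 4, 3, 1, 18 and 17, and the culture as a random block 4, 2, 4, 1, 16 and 14, with 20 at 4 h over both genotypes. The blocks changed no other call count by over 1.5 times. They raised the calls of all genes as well. With the slide as a block 12.7% of all genes were called higher at 4 h and 9.52% at 24 h over both genotypes. Without a block the shares were 7.41% and 3.51%. The larger counts are therefore not a trait of the set. For the next 2 settings, the compared groups and no filter, the share of all genes is not given. Fits to the compared groups gave 0 in WT cells at 4 h and 6 at 4 h over both genotypes, and 0 passed in WT cells at 4 h with no filter on dim probes. Median scaling gave 0 in WT cells at 4 h, 4 at 4 h, 7 at 24 h and 1 for 24 h against 4 h. It put the median change of the set at 0.28 and 0.55 in WT cells at 4 h and 24 h, 0.29 and 0.40 in KO cells, and 0.28 and 0.48 over both, where all genes had 0.08 and 0.195 over both. It put KO minus WT at 24 h at 0.07 and the difference in response at 24 h at −0.15, where all genes had −0.135.

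With 1 culture or array left out, the counts ran from 0 to 3 in WT cells at 4 h and 1 to 15 at 4 h over both genotypes. They ran from 0 to 4 at 24 h and 0 to 12 for 24 h against 4 h. Shares of all genes in these fits are not given. The medians ran from 0.10 to 0.23 in WT cells at 24 h, 0.08 to 0.17 and 0.07 to 0.23 in KO cells at 4 h and 24 h, 0.03 to 0.19 for KO minus WT at 24 h, −0.01 to 0.09 for the difference in response at 4 h and 0.08 to 0.20 for KO minus WT culture means.

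Counted over every combination of a named gene's change and a setting, 1469 kept direction and side of the threshold, 33 passed it newly, 141 no longer did and 13 changed sign. With median scaling Mrpl49 (0.08), Mrpl36 (0.10) and Mrpl50 (0.23) changed sign in WT cells at 24 h, Mrpl33 (0.02) in KO cells at 4 h, Mrpl36 (0.02) in KO cells at 24 h, Mrpl33 (0.00) at 4 h over both, and Mrpl36 (0.06) and Mrpl50 (0.15) at 24 h over both. Mrpl49 changed sign in KO minus WT at 4 h without KO culture 3 (0.08), at 24 h without WT culture 9 (0.02) or KO culture 3 (0.04), and on culture means without the same 2 (0.01 and 0.05). With other cultures left out it fell as low as −0.46 at 4 h, −0.42 at 24 h and −0.35 on culture means, each without WT culture 6. The cause of these changes was not tested.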

Other observations

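Mrps33, a small-subunit protein with no bacterial counterpart, was the 1 gene of the 72 whose change at 4 h had opposite signs in the genotypes in all 6 cultures. The change was 0.12, 0.05 and 0.25 in KO cultures 3, 4 and 6 and −0.20, −0.24 and −0.05 in WT cultures 6, 8 and 9, on the log2 scale. How many of all genes had this pattern was not counted, so it is not a trait of the set. The test that follows used no culture block, so its standard error includes spread between cultures. The difference of 0.30 ± 0.18 did not pass the limma test (adjusted p = 1), and the gene was singled out after its values were seen.

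Some genes of the set did not follow the others. Mrpl39, Mrps34 and Mrpl49 had correlations of −0.30, −0.07 and 0.10 with the mean of the other genes over the 18 arrays, and after the mean of each slide was removed they had −0.01, −0.54 and −0.71. Mrpl36 and Mrpl33 had 0.12 and 0.14 before and −0.48 and −0.35 after the slide means were removed. These are descriptions over arrays that share cultures and slides.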
